A study of Mus musculus with 16 samples.

Results

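The 6 mouse T cell receptor β (TCRβ) variable genes TCRBV07-01, TCRBV08-01, TCRBV09-01, TCRBV10-01, TCRBV11-01 and TCRBV22-01 are annotated as V segment pseudogenes, and every rearrangement assigned to one of them was taken from 16 tumor T cell samples. They made up 827 of 198953 unique rearrangements and 2841 of 744906 templates, and they were 6 of the 35 V genes named in the samples. RefSeq (GRCm38.p6) lists the 6 as Trbv7, Trbv8, Trbv9, Trbv10, Trbv11 and Trbv22, all with the biotype V segment pseudogene. In the order of that annotation Trbv7 to Trbv11 follow each other, while Trbv22 lies between Trbv21 and Trbv23.

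The samples came from KPC.Luc tumors grown under the skin of C57BL/6 females, which the study's methods give as 8 to 10 weeks old. Their labels describe magnetic isolation of T cells by CD90.2 at a purity of 80 to 85%, in a text that also describes an expression panel. The study's text on TCR sequencing names no isolation. It gives DNA extracted from tumors in the results and an RNA extraction kit in the methods. KPC.Luc is a mouse pancreatic ductal adenocarcinoma line that carries luciferase. Each of the 4 groups held 4 mice. Control mice were given scrambled peptide and isotype IgG. ANT008 mice were given ANT008, a peptide antagonist of the receptors of vasoactive intestinal peptide, with isotype IgG. Anti-PD-1 mice were given scrambled peptide and an antibody against the checkpoint receptor PD-1, and combination mice received ANT008 and anti-PD-1. Treatment lasted 10 days, with a daily 10 µg dose of peptide under the skin and 200 µg of antibody into the peritoneum at intervals of 3 days. The assay reads rearranged TCRβ loci alone, so the T cell label could not be checked against other markers.

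TCRβ genes are assembled in developing T cells by joining a V, a D and a J segment, with bases trimmed from the segment ends and others inserted between them. The join sets the reading frame of the third complementarity-determining region (CDR3), which normally opens with a conserved cysteine codon of the V segment. A V pseudogene can still recombine if its recombination signal works, and a T cell can carry a rearrangement that makes no protein on one chromosome beside the productive one on the other.

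A template is a starting molecule counted by the assay, and a row here is 1 unique rearrangement of 87 nucleotides in 1 sample. A row is in frame (In), out of frame (Out) or in frame with a stop codon in its CDR3 (Stop). Total templates per sample ran from 11317 to 99411 with a median of 45169, and unique rearrangements from 4378 to 21531. At these depths a count of 0, with 3 counts as the floor, allows a share of up to 0.00302% in the deepest and 0.0265% in the shallowest sample.

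The most frequent rows of TCRBV22-01 and TCRBV10-01 are shown first, because they carry most of the templates of both genes in the samples where these genes are abundant. Capitals mark the first codon of the CDR3, which is a cysteine codon in TCRBV22-01 and a tryptophan codon in TCRBV10-01.
TCRBV22-01, In, combination replicate 1: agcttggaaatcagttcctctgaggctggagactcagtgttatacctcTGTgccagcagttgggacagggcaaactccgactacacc
TCRBV22-01, Out, control replicate 1: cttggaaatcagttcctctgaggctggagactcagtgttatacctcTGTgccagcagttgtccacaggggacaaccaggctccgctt
TCRBV10-01, In, anti-PD-1 replicate 3: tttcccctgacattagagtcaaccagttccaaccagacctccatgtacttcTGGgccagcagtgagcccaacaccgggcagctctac
TCRBV10-01, Out, control replicate 4: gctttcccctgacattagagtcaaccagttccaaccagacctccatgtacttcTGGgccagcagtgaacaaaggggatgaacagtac

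TCRBV22-01 and TCRBV10-01 supplied nearly all of the rearrangements. TCRBV22-01 had 657 rows and 1947 templates, and TCRBV10-01 had 146 rows and 859 templates, and both were found in 16 of 16 samples. TCRBV09-01 had 11 rows and 20 templates in 9 samples, and TCRBV08-01 had 7 rows and 9 templates in 6 samples. TCRBV07-01 had 4 rows in 3 samples and TCRBV11-01 had 2 rows in 2 samples, each row with 1 template.

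Of all rows of the 6 pseudogenes, 30.7% were In, 65.8% Out and 3.51% Stop. The 29 other V genes together had 63.6% In, 35.2% Out and 1.18% Stop rows. Counted in templates, the 6 pseudogenes had 55.4% In, 43.3% Out and 1.3% Stop, against 70.8%, 28.1% and 1.13% for the other V genes. Their In templates include the large In rows of 587 and 476 templates described below. TCRBV22-01 had 194 In rows (29.5%), 439 Out rows (66.8%) and 24 Stop rows (3.65%). TCRBV10-01 had 54 In rows (37.0%), 90 Out rows (61.6%) and 2 Stop rows (1.37%). The 4 sparse genes together had 6 In, 15 Out and 3 Stop rows.

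Within samples, the In share of TCRBV22-01 ran from 19.2% to 40.9% with a median of 29.4%. The In share of all other V genes in the same samples ran from 57.8% to 66.2% with a median of 63%, so the ranges did not overlap. The mean difference within a sample was -33.3 ± 6.35 percentage points (SD, n = 16 mice), lower in 16 of 16, and the exact sign-flip permutation test over samples gave an adjusted p of 5.87e-05 from a two-sided p of 3.05e-05, the smallest that 16 samples allow. Of the 25 V genes with at least 10 rows in at least 6 samples, 28% were called lower and 40% higher in this test at an adjusted p of 0.05. P-values here measure the spread between these 16 samples, which the labels number as separate mice.

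For TCRBV10-01, 6 samples had at least 10 rows. Its In share was 27.3% in control replicate 2, 30.8% in control replicate 3, 30% in anti-PD-1 replicate 1, 31.8% in anti-PD-1 replicate 3, 57.1% in combination replicate 1 and 35.7% in combination replicate 4. All 6 values lay below the share of all other V genes of their own sample, 62.3% to 64.8%. The mean difference was -28.3 ± 10.5 percentage points (SD, n = 6), with an adjusted p of 0.046 in the exact permutation test, whose smallest raw p with 6 samples is 0.0312. With shares of templates in place of rows, the difference was -17.4 points with an adjusted p of 0.231 in the same exact test. In the 10 samples with fewer than 10 rows the In share ran from 0% to 66.7%, and it was above 60% in 4 of them, which held 3 to 8 rows each.

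**Figure D1:**
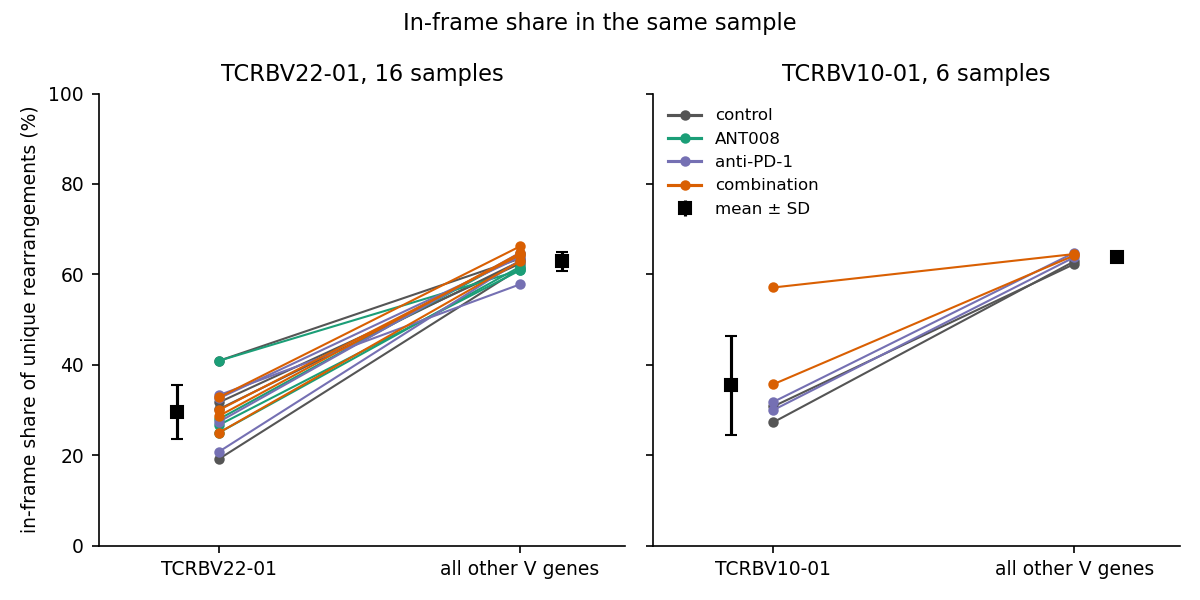
In-frame share of unique rearrangements (%, vertical axis) of TCRBV22-01 in 16 samples and of TCRBV10-01 in the 6 samples with at least 10 rows, each joined by a line to all other V genes of the same sample, coloured by group; squares and bars are the mean ± SD over samples. Every line rises from the pseudogene, at 19.2% to 57.1%, to the other V genes, at 57.8% to 66.2%.

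Among V genes with at least 100 rows that are not among the 6, the frame split of TCRBV24-01 was nearest to that of the pseudogenes pooled. TCRBV24-01 had 6604 rows, of which 30.8% were In, 66.5% Out and 2.77% Stop. TCRBV21-01 came next with 839 rows, 29.8% In and 67.9% Out, and TCRBV04-01 was farther away with 44.1% In and 10.2% Stop. RefSeq lists Trbv24, Trbv21 and Trbv4 as V segments and not as pseudogenes. In 6590 of the 6604 TCRBV24-01 rows the sequenced V part held a stop codon in the frame of the CDR3, against 2 of 657 rows of TCRBV22-01 and 0 of 146 of TCRBV10-01.

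The annotation and the frame split also parted in the other direction. RefSeq lists 7 further V genes of these samples as pseudogenes, and 1 of them, Trbv29 (TCRBV29-01), had 8506 rows with 72.1% In. The other 6, Trbv6, Trbv12-3, Trbv18, Trbv25, Trbv27 and Trbv28, had 60 rows in all, 28.3% of them In. The 22 other V genes listed as V segments had 63.3% In rows pooled, and their In shares ran from 29.8% to 76.1%.

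**Figure D2:**
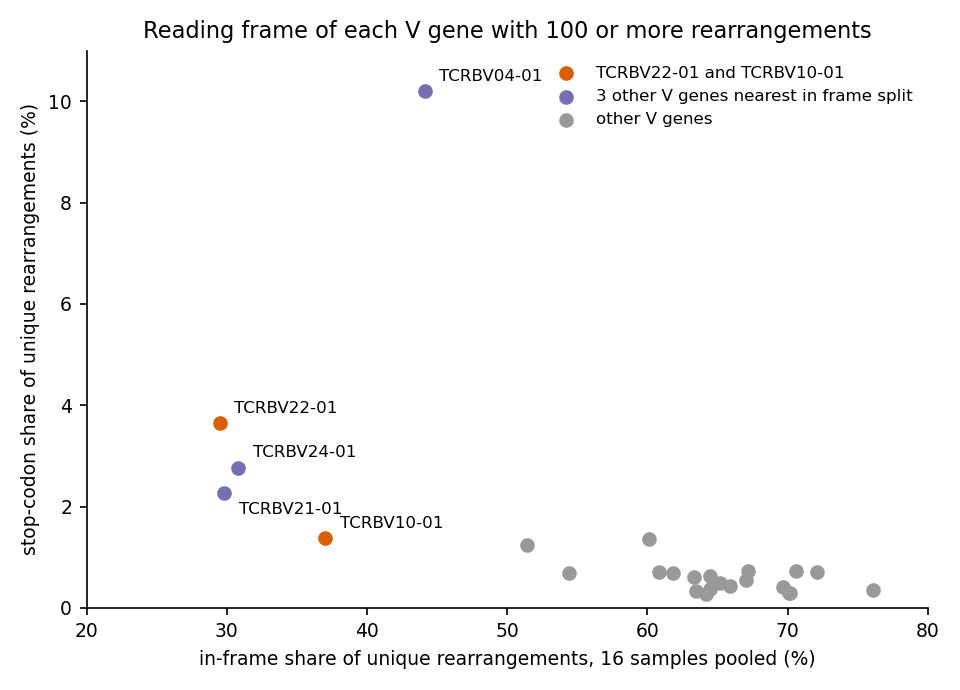
In-frame share (%, horizontal axis) against stop-codon share (%, vertical axis) of unique rearrangements, 16 samples pooled, 1 point for each V gene with at least 100 rows. TCRBV22-01 (29.5% In) and TCRBV10-01 (37.0% In) lie on the left with TCRBV24-01 and TCRBV21-01, and TCRBV04-01 stands apart at 10.2% Stop.

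The opening codon of the CDR3 told TCRBV10-01 from TCRBV22-01. TCRBV10-01 rows opened with TGG, the tryptophan codon, in 142 of 146 rows (97.3%) and in 53 of its 54 In rows, and none opened with a cysteine codon. TCRBV22-01 rows opened with a cysteine codon in 651 of 657 (99.1%), including 192 of its 194 In rows. An In call of the assay therefore covered TCRBV10-01 rows without the conserved cysteine, as in the TCRBV10-01 sequences above.

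The Stop share of TCRBV22-01 was 3.65% over all rows and ran from 0% to 13.3% within samples, with a median of 3.39%. It was higher than that of all other V genes of the sample by 2.92 ± 4.10 percentage points (SD, n = 16), in 11 of 16 samples, with an adjusted p of 0.0103 in the exact permutation test. In that test 12% of the 25 V genes were called higher and 68% lower. With shares of templates, without rows of 1 template, or with at least 30 rows per sample, the adjusted p was 0.0905, 0.147 and 0.121 in the same exact test. Without rows of 1 template, and with at least 30 rows, fewer samples held enough rows to be tested, so those values also rest on a smaller n. For TCRBV10-01 the difference in Stop share was 1.11 ± 3.83 points (SD, n = 6), with an adjusted p of 0.713 in the exact test.

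The Stop rows of TCRBV22-01 were alike in sequence. The first stop stood at codon 5 of the CDR3, counted from 1 at the cysteine codon, in 22 of 24 rows, and it overlapped bases of the V segment in 21. In 17 of the 24, the V segment had lost 2 bases and ended in TG, and the next base was A, which completed TGA. These 17 rows came from 9 samples and had 1 to 3 templates each. Among them, 2 rows of control replicate 3 differed from each other by 1 base in the V part. A row of combination replicate 1 with 2 templates differed at 2 bases from the TCRBV22-01 In row of that sample shown above. Examples from separate mice are shown with the stop codon in capitals.
TCRBV22-01, Stop, ANT008 replicate 1: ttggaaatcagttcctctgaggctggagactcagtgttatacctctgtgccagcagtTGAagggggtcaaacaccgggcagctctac
TCRBV22-01, Stop, anti-PD-1 replicate 2: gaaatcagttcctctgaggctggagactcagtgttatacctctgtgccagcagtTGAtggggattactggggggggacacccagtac
TCRBV22-01, Stop, combination replicate 1: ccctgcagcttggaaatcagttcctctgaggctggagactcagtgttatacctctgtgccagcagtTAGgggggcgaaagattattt
The third sequence had lost 3 V bases and carries TAG at the same codon.

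Of the 118 TCRBV22-01 rows that had lost 2 V bases, 25 were In, 76 Out and 17 Stop, a Stop share of 14.4%. Among the 539 rows with any other number of V bases lost, 7 were Stop (1.30%). Rows with an untrimmed V segment numbered 100, of which 26 were In and 74 Out. The 2 Stop rows of TCRBV10-01 had their stop codon over the J segment.

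**Figure D3:**
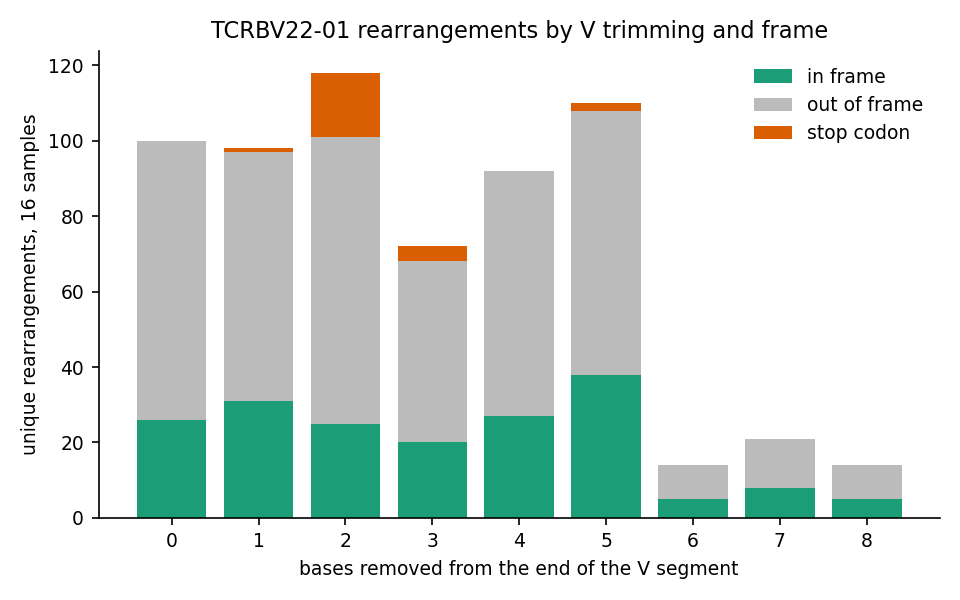
Number of TCRBV22-01 rows in 16 samples (vertical axis) by the number of bases removed from the end of the V segment (0 to 8, horizontal axis), stacked as in frame, out of frame and stop codon. The stop-codon rows gather at 2 bases removed, with 17 of 118 rows.

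TCRBV22-01 differed from the other V genes in the segments it had joined, which the choice of the 6 genes did not use. J segments of the TCRBJ02 cluster were in 54.0% of its rows on average over samples, against 66.7% in the rows of all other V genes. Within samples its TCRBJ02 share ran from 42.9% to 67.4%, and that of the other V genes from 65.3% to 68.3%, with control replicate 2 the one sample where TCRBV22-01 was higher. The difference was -12.7 ± 7.10 percentage points (SD, n = 16), with an adjusted p of 0.000229 in the exact permutation test, in which 32% of 25 V genes were called lower and 36% higher. It was -13.5 points among Out rows (adjusted p of 0.000366, exact test), and -19.7 points weighted by templates (adjusted p of 0.0519, exact test). Of the 3 V genes nearest in frame split, TCRBV24-01 differed by -4.79 points (adjusted p of 0.00219, exact test). TCRBV21-01 differed by -3.94 points (0.0793) and TCRBV04-01 by 4.37 points (0.000153) in the same test. A lower TCRBJ02 share was therefore not particular to TCRBV22-01.

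The D segment TCRBD02 was resolved in 26.7% of TCRBV22-01 rows against 39.1% for the other V genes, on average over samples. The difference was -12.4 ± 11.2 points (SD, n = 16), lower in 15 of 16 samples, with an adjusted p of 0.00188 in the exact permutation test, in which 44% of V genes were called lower. TCRBD02 lies beyond the TCRBJ01 cluster in the locus and joins only to TCRBJ02 segments in deletional rearrangement, so the D and J shares are not independent. TCRBV22-01 rows held a mean of 3.54 inserted bases against 3.79, a difference of -0.25 ± 0.454 (SD, n = 16, adjusted p of 0.0702 in the exact test, with 28% of V genes called lower). With each mouse left out in turn it ran from -0.313 to -0.186, with adjusted p values of 0.0116 to 0.121 in the exact test. Without anti-PD-1 replicate 1 or without anti-PD-1 replicate 2 it was -0.313 and -0.294, and the adjusted p was 0.0116 and 0.034 in the exact test. Without rows recorded as having lost 19 or more V bases it was -0.283 with an adjusted p of 0.0463 in the exact test. Among Out rows alone it was -0.654 with an adjusted p of 0.0101 in the exact test.

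For TCRBV10-01 no junction measure passed the threshold over its 6 samples. Its TCRBJ02 share differed by 2.63 ± 11.9 points, its TCRBD02 share by -11.5 ± 18.5 points and its inserted bases by 0.674 ± 0.609 (SD, n = 6), with adjusted p values of 0.627, 0.213 and 0.0963 in the exact permutation test. With 6 samples this test has few possible values.

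Rows of 1 template made up 76.3% of TCRBV22-01 rows and 78.8% of TCRBV10-01 rows, against 76.9% for the other V genes. In the 8 samples with at least 10 In and 10 Out rows of TCRBV22-01, 72.6% of its In rows and 80.0% of its Out rows had 1 template. The difference, In minus Out, was -7.39 ± 17.5 points (SD, n = 8), lower in 6 of 8 samples, with an adjusted p of 0.326 in the exact permutation test. With each mouse left out in turn it ran from -10.8 to -2.84 points, with adjusted p values of 0.0987 to 0.589 in the exact test. Without anti-PD-1 replicate 1 it was -2.84 points (adjusted p of 0.589, exact test). In this test 70.8% of 24 V genes were called lower and 4.17% higher. TCRBV10-01 had no more than 8 In rows in any sample and was not tested.

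TCRBV22-01 was a small and even part of the unique rearrangements in every sample, but its share of templates was uneven. It took 2.56 to 4.88 of every 1000 rows, with a median of 3.10. Of all templates it took 0.579%, 0.113%, 0.190% and 0.138% in control replicates 1 to 4. In the ANT008 group its share was 0.158%, 0.173%, 0.216% and 0.270%. In the anti-PD-1 group it was 0.333%, 0.0932%, 0.114% and 0.194%, and in the combination group 1.46%, 0.114%, 0.0975% and 0.198%. Combination replicate 1, with 715 of 48951 templates (95% Wilson interval 1.36% to 1.57%), and control replicate 1, with 199 of 34380 (0.504% to 0.665%), stood above all other samples. Without the largest row of each sample the share ran from 0.0682% to 0.261%. These intervals cover counting error only.

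The template share of TCRBV10-01 had a median of 0.036%, against 0.181% for TCRBV22-01, and was the higher of both genes in control replicate 4 and anti-PD-1 replicate 3. It was 0.0233%, 0.0478%, 0.0545% and 0.294% in control replicates 1 to 4, and 0.00894%, 0.0216%, 0.0262% and 0.0838% in the ANT008 group. In the anti-PD-1 group it was 0.0390%, 0.0613%, 0.502% and 0.0177%, and in the combination group 0.0327%, 0.0343%, 0.00963% and 0.0377%. Anti-PD-1 replicate 3, with 499 of 99411 templates (95% Wilson interval 0.460% to 0.548%), and control replicate 4, with 149 of 50621 (0.251% to 0.345%), were the high samples. Without the largest row the share ran from 0.00298% to 0.0474%. Per 1000 rows TCRBV10-01 took 0.258 to 1.4.

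**Figure D4:**
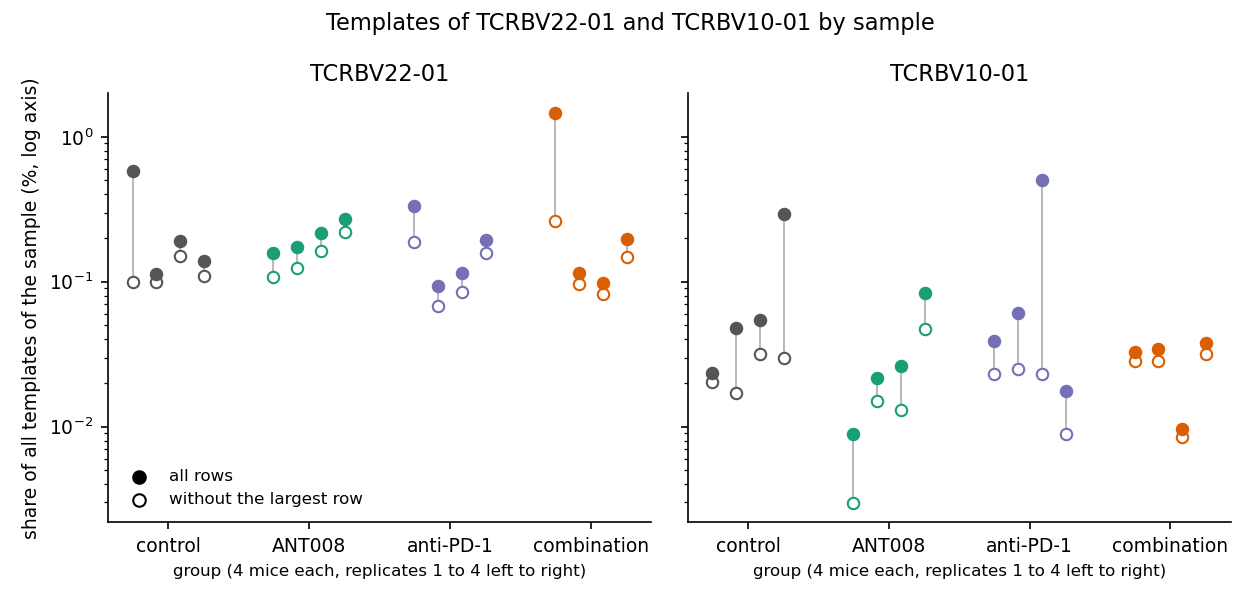
Share of all templates of a sample (%, log axis) taken by TCRBV22-01 and TCRBV10-01 in the 4 mice of each group; filled points are all rows, open points leave out the largest row, and grey lines join both values of a sample. The high points of TCRBV22-01 at 1.46% and 0.579% and of TCRBV10-01 at 0.502% and 0.294% drop to 0.261%, 0.0989%, 0.0231% and 0.0296% without that row.

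Templates per V gene were compared between treatments by the quasi-likelihood test of edgeR, Benjamini-Hochberg adjusted over the 25 V genes that passed the filter on low counts. TCRBV22-01 and TCRBV10-01 passed it, and the other 4 pseudogenes did not. Of the 25, 0% were called in each of the 3 comparisons with control and in the interaction of both agents, while 2, 2, 5 and 2 V genes had an unadjusted p under 0.05 in the ANT008, anti-PD-1, combination and interaction tests. DESeq2 also called 0 in each, with 1, 4, 6 and 2 under 0.05 before adjustment. A change in the number of cells and a change in molecules per cell cannot be told apart here.

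TCRBV22-01 averaged 0.255% ± 0.218 of templates in control, 0.204% ± 0.0503 under ANT008, 0.184% ± 0.109 under anti-PD-1 and 0.467% ± 0.663 under both (SD, n = 4 each), and the groups overlapped. Its log2 fold change over control in edgeR was -0.32 ± 0.71 (SE, adjusted p of 0.787) for ANT008, -0.47 ± 0.71 (0.614) for anti-PD-1 and 0.88 ± 0.71 (0.403) for the combination. Without combination replicate 1 the combination value was -0.89, and without control replicate 1 the ANT008 and anti-PD-1 values were 0.47 and 0.32. Counted as unique rearrangements the combination value was -0.03.

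TCRBV10-01 averaged 0.105% ± 0.127 in control, 0.0351% ± 0.0333 under ANT008, 0.155% ± 0.232 under anti-PD-1 and 0.0286% ± 0.0128 under both (SD, n = 4 each), and the groups overlapped. Its log2 fold change in edgeR was -1.59 ± 0.96 (SE, adjusted p of 0.48) for ANT008, 0.61 ± 0.89 (0.614) for anti-PD-1 and -1.89 ± 0.95 (0.211) for the combination. Without control replicate 4 the ANT008 and combination values were -0.28 and -0.58, and without anti-PD-1 replicate 3 the anti-PD-1 value was -1.33. Without the most frequent rearrangement of each V gene in each sample, the 3 values of TCRBV10-01 were -0.55, -0.36 and -0.34 and those of TCRBV22-01 were 0.25, -0.14 and 0.09, in the order ANT008, anti-PD-1 and combination. The median log2 fold change of the 25 V genes was 0.07, 0.38 and 0.25 in the ANT008, anti-PD-1 and combination comparisons.

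The In share of TCRBV22-01 rows averaged 30.5% ± 8.90 in control, 30.2% ± 7.27 under ANT008, 28.5% ± 5.78 under anti-PD-1 and 29.1% ± 3.24 under both (SD, n = 4 each). The group means lay closer together than the mice of a group, and no test between groups was run on this share.

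Of the 827 rows, 5 reached at least 0.1% of the templates of their sample. The TCRBV22-01 In row of combination replicate 1 had 587 templates, 1.20% of the sample (95% Wilson interval 1.11% to 1.30%), and ranked 4 among the In rows of that mouse. The TCRBV22-01 Out row of control replicate 1 had 165 templates (0.480%, 0.412% to 0.559%). The TCRBV10-01 In row of anti-PD-1 replicate 3, which opens with TGG, had 476 templates (0.479%, 0.438% to 0.524%) and ranked 18 among In rows. The TCRBV10-01 Out row of control replicate 4 had 134 templates (0.265%, 0.224% to 0.313%), and a TCRBV22-01 In row of anti-PD-1 replicate 1 had 63 (0.145%, 0.113% to 0.185%). Each was found in 1 sample.

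A T cell clone with both TCRβ loci rearranged can give both sequences in like numbers. Each of these 5 rows was therefore set beside the In rows of the same sample whose count was like its own, the larger count exceeding the smaller by at most 25%. All 5 had at least 1 such row, and the number ran from 3 to 23. The 587 templates of the TCRBV22-01 row in combination replicate 1 stood beside 3 In rows with 513 to 654 templates, the closest being a TCRBV04-01 row with 616. The TCRBV22-01 Out row of control replicate 1, at 165 templates, had 5 such rows, the closest a TCRBV20-01 row with 167. The TCRBV10-01 In row of anti-PD-1 replicate 3, at 476, had 12, the closest a TCRBV19-01 row with 487. The TCRBV10-01 Out row of control replicate 4, at 134, had 20, the closest a TCRBV02-01 row with 136, and the TCRBV22-01 row of anti-PD-1 replicate 1 had 23.

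The same count was made for 420 Out rows of all other V genes at or above 0.1% of templates. The 5 pseudogene rows include In rows, and no such count was made for In rows of other V genes. Of these, 416 (99%) had at least 1 In row of like count, with a median of 16. A partner of like count was therefore found for nearly every abundant Out row, and like counts do not show that 2 rows came from the same cells. Because each of the 5 rows was found in 1 mouse, their recurrence with a partner in other mice could not be compared.

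Near copies of these abundant rows were also present. Rows of the same V gene and sample that differed from an abundant row by at most 2 edits numbered 9 for the 587-template row, 2 for the 165-template row, 3 for the 476-template row, 3 for the 134-template row and 0 for the 63-template row. These 17 rows had 18 templates in all, and no row of another V gene in those samples came as close. Without them the In share over all rows of the 6 genes was 30.6%.

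Sharing between mice was rare. A TCRBV10-01 Out rearrangement was found in 2 mice, with 9 templates in ANT008 replicate 4 and 1 in anti-PD-1 replicate 4, and it was the one pseudogene rearrangement found in more than 1 sample. That is 2 of 827 rows (0.242%), against 4.13% of the rows of other V genes, and the 6 genes held fewer rows per sample in which a match could occur. Of the 3 V genes nearest in frame split, TCRBV21-01 had 2 of 839 rows in several samples (0.238%). The share was 0.909% for TCRBV24-01 and 3.23% for TCRBV04-01, so rare sharing was not particular to the 6.

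The sparse pseudogenes differed from TCRBV22-01 and TCRBV10-01 in how much of the V segment was left. In 14 of the 24 rows of TCRBV07-01, TCRBV08-01, TCRBV09-01 and TCRBV11-01 (58.3%), at least 19 bases were missing from the V end, 19 in 13 of them. The count was 3 of 4 rows for TCRBV07-01, 6 of 7 for TCRBV08-01, 3 of 11 for TCRBV09-01 and 2 of 2 for TCRBV11-01. As recorded by the assay, it was 3 of 146 for TCRBV10-01, 5 of 657 for TCRBV22-01 and 740 of 198009 (0.374%) for all other V genes. Of these, 1 TCRBV10-01 row and 1 TCRBV22-01 row were near copies of an abundant row and kept its V end. The TCRBV10-01 row with 47 bases recorded as removed still held V bases past a gap inside the segment. The 6 other sparse V genes that RefSeq lists as pseudogenes were Trbv6, Trbv12-3, Trbv18, Trbv25, Trbv27 and Trbv28. At least 19 bases were recorded as missing in 44 of their 60 rows (73.3%), 19 in 30 of them, so the trait was not particular to the 4. All 14 rows of the 4 genes had TCRBJ01-01 or TCRBJ02-02, 9 to 19 inserted bases with a median of 15, and at most 2 templates.

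Several of these rows ended in the same bases in different mice. TCRBV08-01 with TCRBJ01-01 gave 4 rows in 4 mice with at least 29 identical bases at the 3′ end, and TCRBV09-01 with TCRBJ02-02 gave 3 rows in 3 mice. The shared end, in capitals, takes in inserted bases, which as a rule differ between rearrangements, though not all of them in every row. The bases just before the shared end differ between the TCRBV08-01 rows shown. The TCRBV07-01 rows shown have the same V bases, except that the row of anti-PD-1 replicate 4 lost 28 and that of control replicate 2 lost 19.
TCRBV08-01, combination replicate 1: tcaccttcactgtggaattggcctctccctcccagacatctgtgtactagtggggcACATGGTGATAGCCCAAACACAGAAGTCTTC
TCRBV08-01, control replicate 2: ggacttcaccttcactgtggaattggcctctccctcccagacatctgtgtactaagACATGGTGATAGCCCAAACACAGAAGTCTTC
TCRBV07-01, control replicate 2: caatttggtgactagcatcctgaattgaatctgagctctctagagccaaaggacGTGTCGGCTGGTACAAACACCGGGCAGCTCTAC
TCRBV07-01, anti-PD-1 replicate 4: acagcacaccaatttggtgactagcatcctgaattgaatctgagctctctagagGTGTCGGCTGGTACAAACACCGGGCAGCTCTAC
Among the 5 shared ends found was an end of TCRBV22-01 with TCRBJ02-02, 32 identical bases in 2 rows of 2 mice. For each of the 5, no row of another V gene in the 16 samples had the same last 26 bases. The labels name a synthetic immune repertoire as part of the assay, and whether these rows come from it was not tested.

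The other 10 rows of the sparse genes kept the V end, with at most 6 bases removed. They were 4 In and 6 Out rows with 19 templates in 7 samples, and 8 of them were TCRBV09-01. The most frequent was a TCRBV09-01 Out row of control replicate 1 with 6 templates (0.0175%), and its CDR3 opens with a cysteine codon, in capitals.
TCRBV09-01, Out, control replicate 1: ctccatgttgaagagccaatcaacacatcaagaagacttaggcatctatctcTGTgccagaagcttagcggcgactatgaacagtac
TCRBV07-01 and TCRBV08-01 each had 1 such row with 1 template, and TCRBV11-01 had none. All 4 TCRBV07-01 rows held a stop codon in the sequenced V part in the frame called by the assay.

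**Figure D5:**
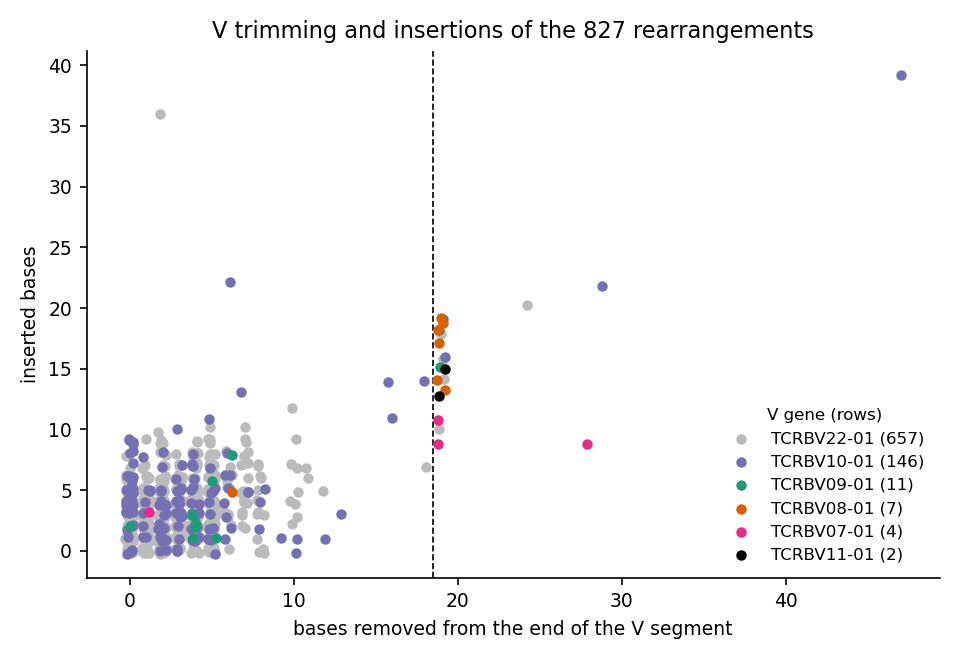
Bases removed from the end of the V segment (horizontal axis) against inserted bases (vertical axis) for the 827 rows, coloured by V gene, with points shifted slightly so that they can be told apart. Most TCRBV22-01 and TCRBV10-01 rows lie left of the dashed line, drawn just below 19 bases, while 14 of the 24 rows of the 4 sparse genes lie right of it.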

How the data were processed

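T cell receptor β repertoires were surveyed by Adaptive Biotechnologies with the immunoSEQ assay, and the deposited values hold 1 entry per unique rearrangement with its template count, a whole-number count made by the service, and its fraction of all templates, as deposited. Columns for reads were empty. The labels name RNA, and the study names DNA in its results and an RNA kit in its methods. A template may therefore be a transcript or a cell. The aligner and genome build are not given in the sources used here, and no coordinates are printed. All 35 V gene names matched RefSeq symbols. The 117 rows with no resolved V gene were left out of V gene counts, and none of their ties named a pseudogene.

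The 6 genes and the lists were chosen with earlier results of these data known. Templates per V gene were compared with edgeR 4.0.16 in R 4.3.3, with all 16 samples in 1 fit, library size equal to total templates and filterByExpr. The SE of a log2 fold change was back-calculated as its absolute value divided by the square root of the F statistic, as edgeR gives none. Shares of rows were compared within samples by an exact two-sided sign-flip permutation test in Python 3.11.15, adjusted by Benjamini-Hochberg over V genes, at a threshold of 0.05. The named V genes were the 6, the 3 nearest to them in frame split, and any V gene called by treatment; the named rows were the most frequent of each gene and those of at least 0.5% of templates. TCRBV29-01 and the rows of 0.1% to 0.5% were named after their values were seen. Scripts were tested on simulated data. DESeq2 1.42.0, TMM, other filters and countings, and leaving out each mouse were tried as alternatives. RefSeq's V_segment and V_segment_pseudogene stood in for the planned biotype names. Intervals are 95% Wilson intervals.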

Additional observations from a re-analysis of the deposited data

Results flagged for a closer look

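In groups of 4 mice, a sample far from the other 3 by Dixon's test at the 95% level was found in 6 of 32 groups tested, over 4 measures of TCRBV22-01 and TCRBV10-01, and chance gives about 1 in 20. The TCRBV22-01 share of templates stood apart in control replicate 1 (0.579%) and combination replicate 1 (1.46%). The TCRBV10-01 share stood apart in control replicate 4 (0.294%) and anti-PD-1 replicate 3 (0.502%). In these 4 samples 1 row held 82.1% to 95.4% of the gene's templates. Without the largest row of each sample, TCRBV10-01 stood apart on the low side in anti-PD-1 replicate 4 (0.00884%) and combination replicate 3 (0.00843%), where that share rests on few templates.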

How the results depend on the processing

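Neither TCRBV22-01 nor TCRBV10-01 was called by treatment under any of the 28 settings (DESeq2 gave no p for TCRBV22-01), where the smallest adjusted p of either in a comparison with control was 0.0878. The number of V genes called, 0 at first, became 1 for ANT008 with no filter on low counts or in-frame rows only. It became 1 for the combination with TMM, no filter, out-of-frame and stop-codon rows only, the replicate block, or without rows with 19 or more V bases removed, and 1 for the interaction with in-frame rows only. Leaving out 1 mouse gave 0 to 2 for ANT008, 0 to 1 for the combination and 0 to 2 for the interaction. The genes so called were TCRBV14-01, TCRBV24-01, TCRBV20-01 and TCRBV01-01. Correlations of same-numbered samples averaged 0.0471 over 24 pairs, 12 of them over 0.1, against -0.0151 over 72 pairs of different number, 24 of them over 0.1, and 9 of 16 samples were closest to their own number. As not every pair exceeded 0.1 and the labels tie no numbers together, the numbers were not taken as pairs. This rule is not a test of pairing, and a fit with the number as a block is among the alternatives given here. Against control, the TCRBV22-01 value for ANT008 turned to 0.25 without each gene's most frequent rearrangement and 0.19 with the replicate block, for anti-PD-1 to 0.67 in frame, and for the combination to -0.03 as unique rearrangements and -0.92 among out-of-frame and stop-codon rows. The TCRBV10-01 value for ANT008 turned to 0.19 in frame, and for anti-PD-1 to -0.21 as unique rearrangements, -0.36 without the most frequent rearrangement and -1.83 among out-of-frame and stop-codon rows. Leaving out 1 mouse moved TCRBV22-01 from -0.56 to 0.47 for ANT008, -0.95 to 0.32 for anti-PD-1 and -0.89 to 1.67 for the combination, and TCRBV10-01 from -1.33 to 1.92 for anti-PD-1. The lower In share of TCRBV22-01 stayed called under every alternative run (-32.1 to -37.5 points) and without each mouse (-34.2 to -32.7). With templates in place of rows, the In share called 11 V genes, the TCRBJ02 share 0 and the TCRBD02 share 6, the TCRBV10-01 Stop difference turned to -0.613 points and its TCRBJ02 difference to -5.02 points. At 0.5% of templates 1 abundant row was left, with a partner of like count. TCRBV10-01 had no value in the tests on rows with at least 30 rows per sample, or without any of its 6 samples. Leaving out long-trimmed rows and near copies was chosen after seeing the data. The cause of these changes was not tested. The 6 samples with at least 10 TCRBV10-01 rows and the 24 rows of the sparse genes set the limit of what could be compared.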
